A study of Homo sapiens with 44 samples.

Results

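The genes described are the 3 D-type cyclins (CCND1, CCND2 and CCND3) and 7 inhibitors of cyclin-dependent kinases (CDKN1A, CDKN1B and CDKN1C of the CIP/KIP family, and CDKN2A, CDKN2B, CDKN2C and CDKN2D of the INK4 family). They were chosen by name as regulators of cell cycle exit and matched to Ensembl gene IDs through the GENCODE annotation: 10 genes of the 60499 in the deposited tables. All 10 passed the filter on low counts, under which 22955 genes were tested. RNA came from the human embryonic stem cell line H1, an established line, in wells coated with laminin and directed towards heart muscle. The 44 libraries fall into 12 groups: undifferentiated cells on laminin LN-521 (pluripotent, n = 3), and cells on LN-521 with LN-221 at day 0, 1 and 3 (n = 3 each), day 5, 7, 9 and 11 (n = 5 each), and day 14, 20, 30 and 90 (n = 3 each). Day 0 cells were in Nutristem medium. CHIR99021, which inhibits the kinase GSK3 and so activates Wnt signalling, was added at day 0, and day 1 and day 3 cells were cultured with it. IWP2, which blocks the production of Wnt ligands, was added at day 3, and day 5 cells were cultured with it. Cells from day 1 to day 9 were in medium with a B27 supplement lacking insulin, and those from day 11 on in medium with the CTS B-27 supplement. All groups are one cell line, for which the labels name no genetic change. The labels number the wells as biological replicates without saying whether they were differentiated at separate times, so p-values measure the spread between wells.

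D-type cyclins bind the kinases CDK4 and CDK6 and drive phosphorylation of the retinoblastoma protein RB, which releases E2F factors and lets a cell pass from G1 into S phase. INK4 proteins bind CDK4 and CDK6 and keep the D cyclins off them, whereas the CIP/KIP proteins p21, p27 and p57 bind cyclin-CDK complexes and mainly inhibit those with CDK2. Heart muscle cells divide while the heart forms and leave the cell cycle as they mature, and members of these families are among the regulators of that exit.

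Levels are CPM, the counts of a gene relative to the total of its library, scaled by edgeR's TMM factors. They are not corrected for gene length, so levels of different genes are compared only in TPM, which are. Each library held 6937136 to 33498022 counts, so that 3 counts, the limit a count of 0 allows, corresponded to 0.0919 to 0.41 CPM by library. This limit covers counting error only. The cells in each well were a mixture. The summed level of 6 cardiomyocyte markers was 76.5 to 137 CPM in pluripotent wells and 19794 to 81081 CPM at day 90. That of 5 endoderm and liver markers was 467 to 6105 CPM at day 9 and 8.43 to 134 CPM at day 90, and that of 6 fibroblast and stromal markers was 2208 to 12909 CPM at day 90. In such bulk RNA a change in the share of a cell type and a change in RNA per cell cannot be told apart. Wells of 1 group lay further apart from day 11 on: the share of genes at least 2-fold away from the other wells of the group was 0.201% to 4.96% in the libraries up to day 9, and 2.97% to 20.3% from day 11 on, highest in day 30 replicate 3. Some of the genes share bases with others: LTO1, whose exons overlap those of CCND1 on the opposite strand, averaged 4.07 TPM, and CDKN2B-AS1, opposite CDKN2A and CDKN2B, averaged 0.162 TPM. RNA of such partners is kept apart only if counting used strand, a setting not given in the sources used here.

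The genes were compared between each group and the one before it, and over 2 longer spans, day 0 to day 9 and day 9 to day 90. Differences are log2 fold changes with their standard errors (SE) from edgeR's quasi-likelihood test, with Benjamini-Hochberg adjustment over all genes tested, and a gene was called changed at an adjusted p under 0.05. Between pluripotent cells and day 0, 2 of the 10 genes rose and none fell, where 5.88% of all genes were called. From day 0 to day 1, 3 rose and 3 fell (22.1% of all genes called), and from day 1 to day 3, 2 rose and 4 fell (28.7%). From day 3 to day 5, 2 rose and 1 fell (17.5%), and from day 5 to day 7, 4 rose and none fell (5.89%). Most of the stepwise calls were thus made in the first week, as were most of those over all genes. None of the 10 genes was called from day 7 to day 9 (1.97% of all genes called), day 9 to day 11 (3.39%), day 11 to day 14 (1.04%), day 14 to day 20 (0.0523%) or day 20 to day 30 (2.82%). In those 5 steps 3, 2, 4, 3 and 2 of the 10 genes had an unadjusted p under 0.05 in edgeR. Of all 22955 genes tested, 2744, 3942, 4176, 1347 and 3580 had one. DESeq2 called 1, 1, 0, 0 and 0 of the 10 genes, and 815, 1550, 919, 57 and 1267 of 46075 genes. From day 30 to day 90, 3 rose and none fell (8.52%). In a fit of the libraries of these 2 days alone none of the 3 was called, with edgeR adjusted p of 0.509 for CCND2, 0.263 for CCND3 and 0.25 for CDKN2D. Limma on log2(TPM + 1) called none of these 3 in that step, but called CDKN2B lower (-1.72, adjusted p = 0.0123) and CDKN2C higher (0.75, adjusted p = 0.0236). Over the longer spans, 4 rose and none fell from day 0 to day 9, where 47.6% of all genes were called, and 7 rose and 1 fell from day 9 to day 90, where 38.4% were called. The 4 of 10 genes called over the first span were thus near the share of all genes, and the 8 of 10 over the second were above it. The median log2 fold change of the 10 genes from day 9 to day 90 was 1.53, against -0.02 over all genes tested. Of all these calls, limma on log2(TPM + 1) kept those of CCND1, CCND2, CDKN1C and CDKN2D at day 1, CCND1, CCND3 and CDKN1B at day 3, CDKN1C at day 5, the 3 CIP/KIP genes from day 0 to day 9, and CCND3, CDKN1A, CDKN1C, CDKN2A, CDKN2C and CDKN2D from day 9 to day 90, and lost the others.

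**Figure D1:**
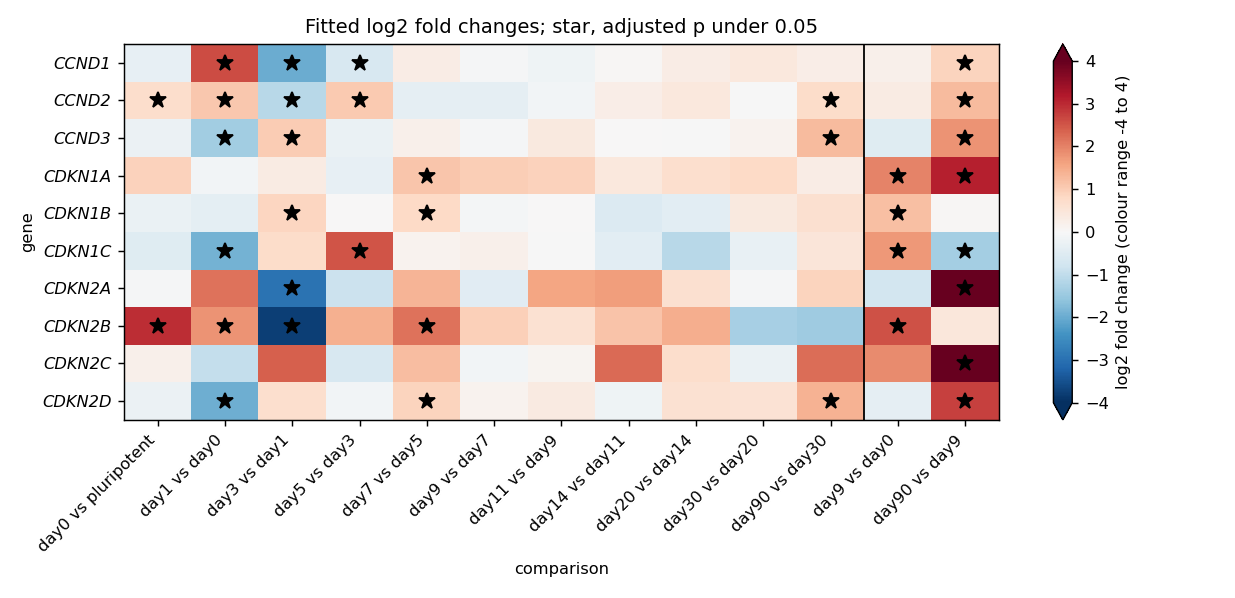
Fitted log2 fold changes of the 10 genes (rows) in 13 comparisons (columns, later group against earlier), with stars at an adjusted p under 0.05. The 2 columns right of the line are the longer spans, which share libraries with the steps. Stars gather at day 1 to day 7, where most stepwise calls over all genes also fell, and in the span from day 9 to day 90. In that span 8 of the 10 genes were called, against 38.4% of all genes.

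CCND1, on chromosome 11 (GRCh38, 69641087 to 69654474, plus strand), encodes cyclin D1 and is a known target of Wnt signalling. It reached 485, 405 and 502 CPM in the 3 wells at day 1, 1 day after CHIR99021 was added, against 70.5, 80.9 and 78.3 CPM at day 0 and 92.7, 94.5 and 101 CPM in pluripotent wells. The lowest day 1 well was above the highest well of every other group. The rise was 2.60 ± 0.26 (log2, SE; edgeR adjusted p = 1.61e-09). At day 3, still in CHIR99021, the wells held 123, 116 and 114 CPM, a fall of 1.98 from day 1 on the log2 scale (SE 0.25, edgeR adjusted p = 1.28e-07). CCND1 thus stood as a peak at a single sampled day. The 5 wells at day 5 held 73.4, 70.05, 64.7, 75.3 and 92.8 CPM, the lowest group mean of the series. The further fall from day 3 to day 5 (-0.65 ± 0.22, edgeR adjusted p = 0.0335) was lost when any library of the compared groups other than day 5 replicate 5 was left out. From day 7 to day 14 the group means lay between 79.1 and 92.3 CPM and the wells overlapped. By day 90 the wells held 155, 174 and 160 CPM, all above the day 9 wells (66.4 to 128 CPM), a rise of 0.88 ± 0.22 (edgeR adjusted p = 0.00124). On log2(TPM + 1) this rise was 0.18 (limma adjusted p = 0.774), or 0.42 above the median shift of all genes on that scale.

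CCND2, on chromosome 12 (GRCh38, 4273772 to 4305350, plus strand), encodes cyclin D2, which is known to promote division of heart muscle cells when overproduced. Its CPM rose to day 1, fell to day 3 and rose again to day 5, and its highest mean in CPM was at day 90 and in TPM at day 1. Pluripotent wells, the lowest group, held 134, 169 and 161 CPM, and day 0 wells 224, 296 and 240 CPM with no overlap (0.71 ± 0.21, edgeR adjusted p = 0.0332), a call lost when any 1 of the 6 libraries was left out. At day 1 the wells held 544.6, 465.8 and 586.0 CPM, a rise of 1.07 ± 0.21 (edgeR adjusted p = 0.000198). At day 3 they were back at 183, 265 and 298 CPM, a fall of 1.10 (SE 0.21, edgeR adjusted p = 8.2e-05). At day 5, after IWP2, they held 570, 576, 402, 535.6 and 493.2 CPM, another rise of 1.05 ± 0.19 (edgeR adjusted p = 9.76e-05). CCND1 and CCND2 therefore moved together at day 1 and day 3, and their fitted changes from day 3 to day 5 had opposite signs. The CCND1 fall in that step was -0.73 to -0.60 with each library left out in turn, but its call was lost in most of these fits. On log2(TPM + 1) neither change from day 3 to day 5 was called (limma adjusted p = 0.242 for CCND1). The wells held 267 to 326 CPM at day 11 and 409 to 496 CPM at day 30, with no step called in between. On log2(TPM + 1) the fall to day 3 was -0.99 (limma adjusted p = 0.0899) and the rise to day 5 was 0.70 (limma adjusted p = 0.212). At day 90 the wells held 587, 1128 and 597 CPM. In TPM the day 90 mean of 38.9 was below those of day 1 (56.4), day 5 (46.7), day 20 (45.4) and day 30 (41.4). Replicate 4, at 1128 CPM, also had the highest cardiomyocyte marker sum (81081 CPM, against 19794 and 22180 CPM in the other wells), and its part in the result was not tested beyond leaving it out. With it the rise from day 30 was 0.74 ± 0.21 (edgeR adjusted p = 0.0198), and without it 0.38 (edgeR adjusted p = 0.265). The call was also lost without day 30 replicate 3 or replicate 10, and on log2(TPM + 1) the value was -0.19, or 0.21 above the median shift of all genes. From day 9 to day 90 the rise was 1.28 ± 0.18 (edgeR adjusted p = 3.69e-07). It was 0.91 or more with each library left out in turn, but on log2(TPM + 1) it was 0.62 and not called (limma adjusted p = 0.188).

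CCND3, on chromosome 6 (GRCh38, 41934933 to 42050357, minus strand), encodes cyclin D3. It moved against the other D cyclins at day 1: the wells fell from 16.5, 17.6 and 16.7 CPM at day 0 to 7.07, 4.56 and 7.81 CPM (-1.38 ± 0.32, edgeR adjusted p = 0.0014; -0.89 with a limma adjusted p of 0.0552 on log2(TPM + 1)). The day 1 group was the lowest of the 12 and overlapped none of the other groups, although the lowest day 5 well, at 7.83 CPM, lay just above it. The wells returned to 16.1, 13.1 and 9.89 CPM at day 3 (1.01 ± 0.32, edgeR adjusted p = 0.0141), a call lost without day 1 replicate 2 or day 3 replicate 1. Between day 5 and day 30 group means stayed between 10.8 and 17.0 CPM with overlapping wells. At day 90 the wells held 53.8, 26.5 and 43.7 CPM, above every other well of the series on that scale. In TPM they held 5.74 to 8.75, which overlapped pluripotent (6.04 to 7.33) and day 30 wells (4.48 to 6.84). The rise from day 30 (14.8 to 21.1 CPM) was 1.28 ± 0.32 (edgeR adjusted p = 0.00816), lost without day 30 replicate 3 or day 90 replicate 2, and 0.27 on log2(TPM + 1) (limma adjusted p = 0.518). From day 9 it was 1.79 ± 0.27 (edgeR adjusted p = 1.51e-06), and it was also called on log2(TPM + 1).

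**Figure D2:**
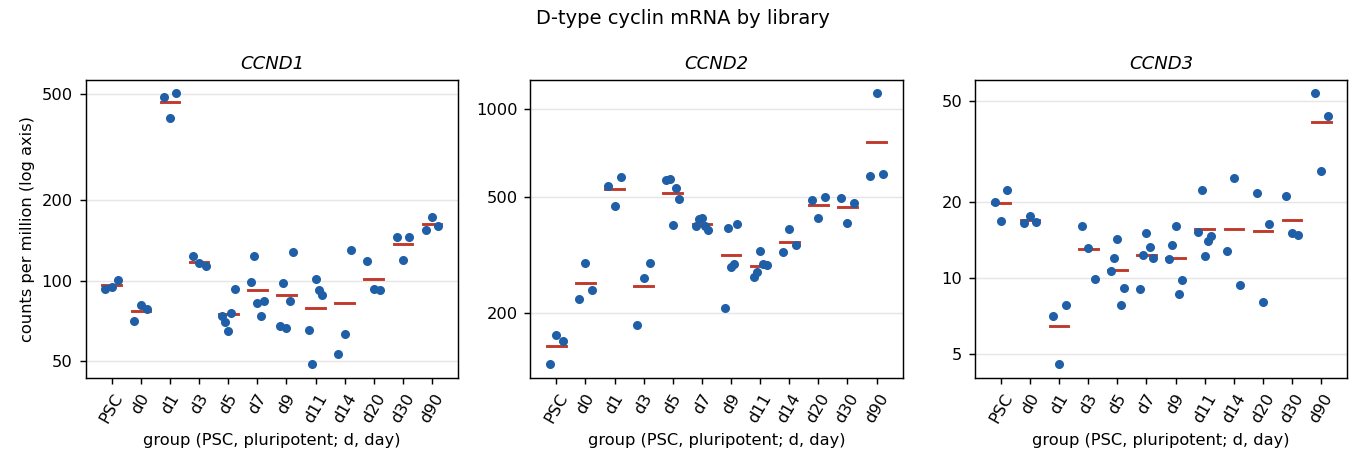
CPM (log axis, a separate scale for each gene) of the 3 D cyclins in every library (blue points) by group, with the group mean (red line). CCND1 peaks at day 1 (405 to 502 CPM), where CCND3 has its lowest wells (4.56 to 7.81 CPM), and CCND2 is higher at day 1 and day 5 than at day 0 and day 3, with day 20 and day 30 overlapping day 5.

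Per unit of length, the D cyclins together peaked at day 1, at 166 ± 18.2 TPM (SD, n = 3) against 46.5 ± 2.98 TPM at day 0. CCND1 made up 64.4% ± 0.216 of that sum at day 1 (SD, n = 3) and 37.5% ± 3.58 at day 0. By day 5 the order was turned round, with CCND2 at 69.5% ± 4.95 and CCND1 at 24.8% ± 3.85 of the sum (SD, n = 5). CCND3 gave 1.54% ± 0.227 at day 1 and at most 16.5% in any group mean, in pluripotent cells. CCND2 had the largest mean share from day 5 on, at 54.3% to 69.5%.

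Among the CIP/KIP genes, CDKN1A, on chromosome 6 (GRCh38, 36676460 to 36687339, plus strand), encodes p21, a main effector of p53 that also rises in many differentiating cells. It had the widest range of the 3, from a mean of 4.22 ± 0.811 CPM in pluripotent cells to 270 ± 48.9 CPM at day 90 (SD, n = 3 each). In TPM its highest mean was at day 30, at 64.5 against 42.0 at day 90, with overlapping wells. It stayed at 2.25 to 11.6 CPM in the 14 wells from day 0 to day 5. At day 7 the wells held 13.9, 24.2, 15.2, 13.1 and 12.5 CPM, all above the day 5 wells (1.10 ± 0.30, edgeR adjusted p = 0.0165), a call lost without day 5 replicate 3 or 4 or day 7 replicate 10, and not made on log2(TPM + 1). At day 9 they held 27.5, 43.1, 29.9, 23.8 and 32.2 CPM, and at day 11 78.4, 65.5, 56.1, 45.3 and 52.4 CPM. Neither of these steps was called: 0.99 ± 0.29 from day 7 (edgeR adjusted p = 0.067) and 0.93 ± 0.29 from day 9 (edgeR adjusted p = 0.0624), where DESeq2 gave adjusted p of 0.0142 and 0.0145. Over the whole span from day 0 to day 9 CDKN1A rose by 1.98 ± 0.36 (edgeR adjusted p = 2.1e-05). The day 14 wells held 65.5, 112 and 62.7 CPM and the day 90 wells 225, 322 and 263 CPM, and the rise from day 9 to day 90 was 3.11 ± 0.33 (edgeR adjusted p = 8.8e-10). No well of day 90 overlapped the day 9 wells. At day 30 the wells spread widest, at 225, 95.0 and 339.5 CPM, in replicates 1, 10 and 3. Replicate 10, the lowest, had an RNA integrity number of 7.4, against 9.5 and 10 in the other wells, and the part of this was not tested.

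CDKN1B, on chromosome 12 (GRCh38, 12715058 to 12722371, plus strand), encodes p27, which holds cells in G1 and is regulated to a large extent through protein stability. It varied least, 3.22-fold between its lowest and highest group means. The day 1 wells were lowest, at 26.2, 24.9 and 25.0 CPM, below all other groups. They rose to 49.6, 42.9 and 47.0 CPM at day 3 (0.87 ± 0.23, edgeR adjusted p = 0.00393). The second step came from day 5, at 55.0, 50.01, 40.6, 50.4 and 39.9 CPM, to day 7, at 93.7, 86.4, 78.9, 77.8 and 71.9 CPM, with no overlap (0.79 ± 0.18, edgeR adjusted p = 0.00335). On log2(TPM + 1) this second step was 0.51 and not called (limma adjusted p = 0.437). CDKN1B at day 9 stood 1.21 ± 0.22 above day 0 (edgeR adjusted p = 1.5e-05), and at day 90 it did not differ detectably from day 9 (0.06 ± 0.21, edgeR adjusted p = 0.843). In between, single wells at day 14 (28.3 CPM) and day 20 (28.2 and 28.5 CPM) were near those of day 1, while others of the same days held 61.5 to 67.4 CPM.

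CDKN1C, on chromosome 11 (GRCh38, 2883213 to 2885773, minus strand), encodes p57 and is imprinted, expressed from the maternal copy. It fell from 30.9, 33.2 and 26.9 CPM at day 0 to 9.37, 4.88 and 10.49 CPM at day 1 (-1.88 ± 0.47, edgeR adjusted p = 0.00336). At day 5 it rose steeply, from 15.9, 13.9 and 11.6 CPM at day 3 to 77.6, 90.25, 120, 40.3 and 69.0 CPM (2.53 ± 0.46, edgeR adjusted p = 8.96e-05). Day 9 stood 1.72 ± 0.43 above day 0 (edgeR adjusted p = 0.0012). CDKN1C was the only one of the 10 genes called lower from day 9 to day 90: its day 9 wells held 115, 65.4, 203, 64.9 and 50.6 CPM and its day 90 wells 50.6, 26.8 and 40.1 CPM, which touch at 50.6 CPM. The fall of 1.35 (SE 0.43, edgeR adjusted p = 0.0109) was -0.92 without day 9 replicate 2 (edgeR adjusted p = 0.0694) and -1.13 without day 90 replicate 4 (edgeR adjusted p = 0.0784). It was still called on log2(TPM + 1). At day 9, day 11 and day 14 the well with the most CDKN1C also had the highest endoderm and liver marker sum of its day. Day 9 replicate 2 (203 CPM of CDKN1C) had 6105 CPM of these 5 markers against 467 to 1745 CPM in the other day 9 wells, and 4874 CPM of the stromal markers against 1773 to 2468 CPM. Day 11 replicate 2 (168 CPM) had 8592 CPM of endoderm and liver markers against 154 to 4502 CPM. The part of these cells in the level of CDKN1C was not tested. Day 14 replicate 3, at 125 CPM, and replicate 6, at 22.3 CPM, had 4006 and 2425 CPM of these markers. Replicate 2 of that day, with less CDKN1C than replicate 3, had 3830 CPM of them.

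From a list of 4 genes of the imprinted region around CDKN1C, 3 fell with it at day 1, where 22.1% of all genes were called, with a median of -1.25 against -0.03 over all genes. KCNQ1OT1, the long RNA that silences the region on the paternal copy, was one of them (-1.41 ± 0.33, edgeR adjusted p = 0.00153) and rose at day 5, as CDKN1C did (1.22 ± 0.30, edgeR adjusted p = 0.00328). It was the only 1 of the 4 called from day 3 to day 5, where 17.5% of all genes were called. KCNQ1, a potassium channel gene that holds KCNQ1OT1 within it, and SLC22A18 were the others that fell at day 1. KCNQ1 and KCNQ1OT1 lie on opposite strands and carry the same limit on strand. From day 9 to day 90 they parted: KCNQ1 rose by 3.16 ± 0.31 (edgeR adjusted p = 2.67e-10) and KCNQ1OT1 fell by 0.84 (SE 0.30, edgeR adjusted p = 0.0228). Of the 4 genes 2 rose and 1 fell in that span, where 38.4% of all genes were called.

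**Figure D3:**
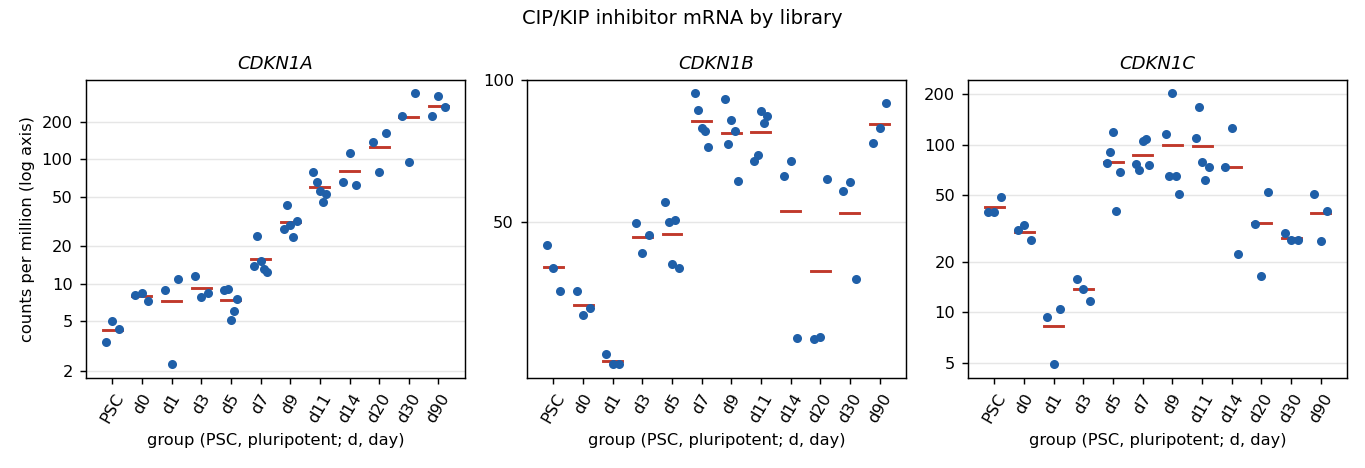
CPM (log axis, a separate scale for each gene) of the 3 CIP/KIP inhibitors in every library (blue points) by group, with the group mean (red line). CDKN1A climbs from 12.5 to 24.2 CPM at day 7 to 225 to 322 CPM at day 90, CDKN1B spans 24.9 to 93.7 CPM in all, and CDKN1C is lowest at day 1 and widest at day 9 to day 14.

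The INK4 genes were far less abundant, with a summed mean of 0.816 to 18.5 TPM by group against 13.2 to 88.2 TPM for the CIP/KIP genes. CDKN2B, on chromosome 9 (GRCh38, 22002903 to 22009363, minus strand), encodes p15, a known target of TGF-beta signalling, and was called in 4 of the 11 steps. Pluripotent wells held 0.161, 0.0919 and 0.182 CPM, which are 3 to 5 counts, and day 0 wells 1.31, 0.932 and 1.17 CPM (2.96 ± 0.83, edgeR adjusted p = 0.0275). This call was lost when any 1 of the 6 libraries was left out. At day 1, replicates 1 and 3 held 5.93 and 5.70 CPM and replicate 2 held 0.161 CPM, so the groups overlapped. The rise of 1.78 ± 0.61 (edgeR adjusted p = 0.0322) was 2.39 without replicate 2, and was lost without any 1 of the other 5 libraries. At day 3 all wells were low again, at 0.397, 0.186 and 0.264 CPM (-3.78 ± 0.73, edgeR adjusted p = 0.000102), and day 1 replicate 2 was as low as these. At day 7 they held 2.39, 6.14, 2.69, 2.71 and 3.24 CPM, all above the day 5 wells (0.310 to 1.30 CPM; 2.17 ± 0.50, edgeR adjusted p = 0.00416), with neither limma fit on TPM making the call. The level at day 9, 4.68 to 10.7 CPM, was 2.54 ± 0.59 above day 0 (edgeR adjusted p = 0.000457). On log2(TPM + 1) this rise was 0.85 (limma adjusted p = 0.062). The highest group mean was at day 20, where the wells held 111, 52.0 and 19.3 CPM. At day 90 they held 13.3, 6.12 and 7.56 CPM, which did not differ detectably from day 9 (0.44 ± 0.50, edgeR adjusted p = 0.518). The stromal marker sums of the same day 20 wells were 8665, 2680 and 1667 CPM. The stromal sum reached its highest value, 12909 CPM, at day 90, in the well with 13.3 CPM of CDKN2B, and a part of stromal cells in the level of CDKN2B was not tested.

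One day 1 library stood apart for CDKN2B and 3 other inhibitors. In replicate 2 CDKN1A was at 2.25 CPM against 8.89 and 10.8 CPM in replicates 1 and 3, CDKN2A at 0.0964 against 0.438 and 1.03 CPM, and CDKN1C at 4.88 against 9.37 and 10.49 CPM. Some genes on the marker lists were low there too, and others were higher. TAGLN and ACTA2, on the smooth muscle list, were at 86.3 and 1.57 CPM against 237 and 8.12 CPM in replicate 1 and 260 and 8.94 CPM in replicate 3. LUM, on the stromal list, was at 1.09 CPM against 7.41 and 10.6 CPM, and SOX2, which encodes a pluripotency factor, at 29.2 CPM against 48.4 and 53.2 CPM. In this well 1.8% of genes were at least 2-fold away from the others, against 0.321% and 0.686% in replicates 1 and 3. POU5F1, which encodes the pluripotency factor OCT4, was at 1090.4 CPM against 1092 and 1108 CPM. NANOG, on the same list as SOX2, was higher in replicate 2, at 180 CPM against 157.5 and 157.9 CPM. So were TTN and MYH7 on the cardiomyocyte list, at 101 and 10.96 CPM against 54.6 and 0.91 CPM in replicate 1 and 75.9 and 5.39 CPM in replicate 3. The rest of that list was not higher there. MYH6 (15.0 CPM against 15.9 and 22.4 CPM) and NKX2-5 (0.45 CPM against 1.08 and 0.934 CPM) were lowest in replicate 2. TNNT2 and ACTN2 lay between the other wells. The RNA integrity number of replicate 2 was 10 as in both others, and each of the 3 was run on a different lane. CCND1 and CCND2 were high in all 3 wells.

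CDKN1A and CDKN2B were called higher together at day 7 and over the span from day 0 to day 9, as CDKN1B was, and the promoters of these members of different families are shown for that reason. The windows run from 250 to 61 bases before the RefSeq start (GRCh38.p14), a stretch that holds no exon of the gene in GENCODE, written 5′ to 3′ on the strand of the gene. Capitals mark matches to the GC box letters GGGCGG on either strand. The windows lie at chr6:36678464-36678653 (plus strand) and chr9:22009366-22009555 (minus strand).
CDKN1A: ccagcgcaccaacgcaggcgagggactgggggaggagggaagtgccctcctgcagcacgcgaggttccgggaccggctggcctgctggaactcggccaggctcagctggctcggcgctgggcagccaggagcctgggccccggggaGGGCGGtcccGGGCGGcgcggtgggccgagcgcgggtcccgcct
CDKN2B: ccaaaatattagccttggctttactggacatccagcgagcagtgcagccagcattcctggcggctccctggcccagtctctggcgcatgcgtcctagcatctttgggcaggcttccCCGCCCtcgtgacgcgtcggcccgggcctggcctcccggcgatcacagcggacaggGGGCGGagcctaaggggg
Each window held 2 GC boxes, and neither held the E2F letters TTTCCCGC or TTTGGCGC on either strand. GC boxes were not particular to these 2 genes: the CCND3 windows held 4, 1 and 0, and the CDKN2C windows 0, 3 and 0. The windows of CDKN1B and CDKN2D held 1 each, and those of CDKN2A held 0. No window of these other genes held the E2F letters. Of 35116 windows of the same 190 bases in RefSeq, 32.99% held at least 1 GC box and 1.41% at least 1 of the E2F words. A match is only a match of letters.

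CDKN2D, on chromosome 19 (GRCh38, 10566462 to 10569059, minus strand), encodes p19INK4d. It was the one INK4 gene above the 3-count limit in every library. It fell from 2.18, 2.76 and 2.35 CPM at day 0 to 0.573, 0.643 and 0.654 CPM at day 1 (-1.95 ± 0.33, edgeR adjusted p = 2.63e-05), the lowest group mean (0.623 ± 0.044 CPM, SD, n = 3), although 1 day 3 well was as low. It rose at day 7 to 1.39, 1.92, 1.90, 1.85 and 1.36 CPM from 0.744 to 1.12 CPM at day 5 (0.88 ± 0.25, edgeR adjusted p = 0.0261), a call lost when any of 6 of the 10 libraries was left out. From day 30 to day 90 it rose again: the day 30 wells held 4.24, 5.86 and 4.35 CPM and the day 90 wells 12.999, 12.04 and 12.44 CPM (1.38 ± 0.31, edgeR adjusted p = 0.00356). This step was not called on log2(TPM + 1), where it was 0.29, or 0.69 above the median shift of all genes. From day 9 the rise was 2.73 ± 0.27 (edgeR adjusted p = 1.97e-10) and was called on both TPM scales.

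CDKN2C, on chromosome 1 (GRCh38, 50960745 to 50974633, plus strand), encodes p18. It was at 1 to 3 counts in each of the 9 wells from pluripotent cells to day 1. Each day 9 well had 7 or 8 counts, at 0.228 to 0.303 CPM. Their mean was 2.65 times the mean CPM of 3 counts at day 0. This ratio leaves out counting error, and the difference was not called (edgeR adjusted p = 0.0895). From day 14 to day 30 it varied between wells by more than 10-fold within a day at day 20 and day 30, from 0.153 to 4.10 and from 0.417 to 4.76 CPM. At day 90 all 3 wells were high, at 11.5, 5.22 and 10.8 CPM. The rise over day 9 was 5.08 ± 0.70 (edgeR adjusted p = 2.52e-07), the largest log2 change of the 10 genes in that span, and it lay between 4.87 and 5.37 with each library left out. The step from day 30, where the groups did not overlap, was 2.24 ± 0.75 and not called with all libraries (edgeR adjusted p = 0.0539). It was called by limma on log2(TPM + 1) (adjusted p = 0.0236) and log2(TPM + 0.1) (adjusted p = 0.0378), and by edgeR without the 2 libraries of lowest total (adjusted p = 0.0338). It was 3.86 without day 30 replicate 10 (edgeR adjusted p = 0.00233) and 2.53 without day 90 replicate 4 (edgeR adjusted p = 0.0423).

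CDKN2A, on chromosome 9 (GRCh38, 21967753 to 21995301, minus strand), yields p16INK4a and, from another first exon and reading frame, p14ARF, which gene counts do not separate. It was close to the limit of detection in most groups: the 5 day 9 wells had 0, 1, 2, 2 and 4 counts. At day 1 it had 13, 3 and 33 counts and at day 3 1, 1 and 3 counts, with 1 well of each day at 3 counts. The day 1 mean, which leans on the well with 33 counts, was 4.54 times the mean CPM of 3 counts at day 3. This ratio also leaves out counting error. The fall was called (edgeR adjusted p = 0.0171), a call lost without day 1 replicate 3 or day 3 replicate 1 or 2. The day 90 wells had 73, 8 and 32 counts, at 3.27, 0.557 and 1.79 CPM. The fitted change from day 9 was 4.75 ± 0.78 (edgeR adjusted p = 5.9e-06), resting on the few counts at day 9. No library of day 90 was at or under the 3-count limit, and 4 of the 5 at day 9 were.

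**Figure D4:**
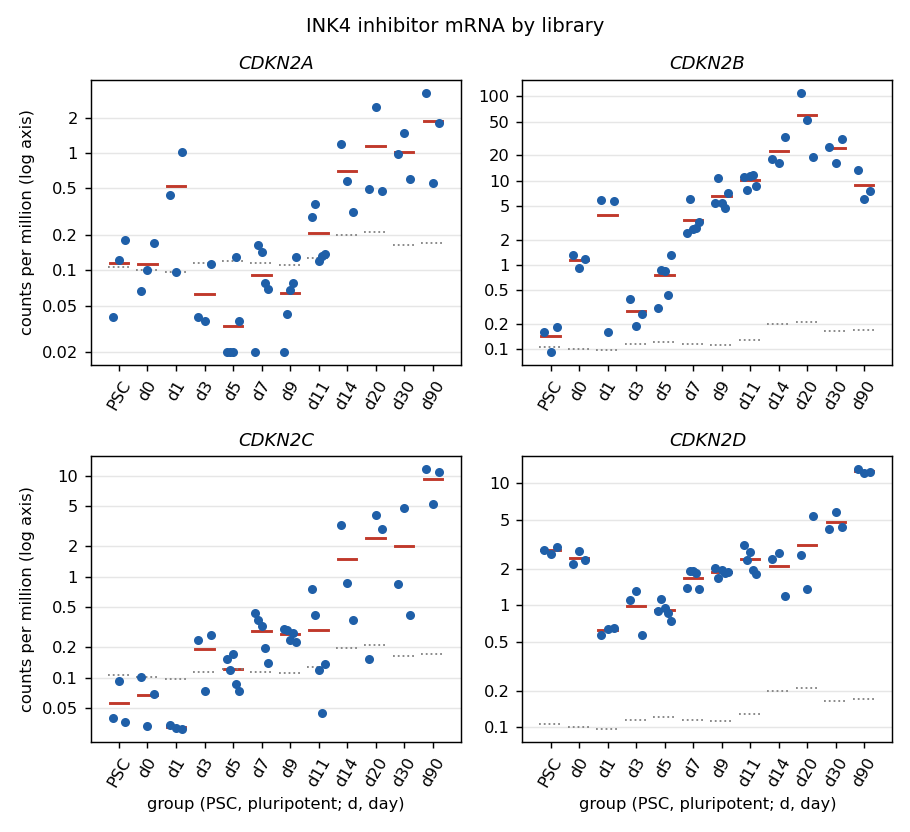
CPM (log axis, a separate scale for each gene; zeros drawn at 0.02) of the 4 INK4 inhibitors in every library (blue points) by group, with the group mean (red line) and the mean CPM of 3 counts (dotted grey). CDKN2B peaks at day 20 (19.3 to 111 CPM), CDKN2C and CDKN2D are highest at day 90 (5.22 to 11.5 and 12.04 to 12.999 CPM), and CDKN2A lies near the dotted line up to day 11 except in 2 of the 3 day 1 wells (0.438 and 1.03 CPM).

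Shares within each family do not depend on scaling between libraries. CDKN1C made up 70.3% ± 8.43 of CIP/KIP TPM at day 5 and 58.5% ± 11.0 at day 9 (SD, n = 5 each), and 15.7% ± 6.02 at day 90 (SD, n = 3). CDKN1A made up 4.49% ± 0.769 in pluripotent cells, 14.6% ± 6.21 at day 9 and 68.0% ± 6.87 at day 90. In the INK4 family CDKN2D had the largest mean share in pluripotent cells (89.6% ± 3.99), at day 0 (76.3%), day 3 (69.0%), day 5 (61.6%) and day 90 (52.1% ± 11.0), and CDKN2B from day 7 to day 30 (means of 47.9% to 74.2%). At day 1 CDKN2B led in replicates 1 and 3 and CDKN2D in replicate 2. The CDKN2C share at day 90 was 21.8% ± 5.91. The log2 ratio of summed CIP/KIP to summed D-cyclin TPM was lowest at day 1 (-3.68 ± 0.211), was 0.31 ± 0.776 at day 9 and stood at -0.02 ± 0.234 at day 90. Of 10 such differences tested by two-sided exact permutation tests, 3 reached 0.0357, the smallest p that 3 wells against 5 allow: the CDKN1C share and the CDKN2C share from day 9 to day 90, which differed by -42.8 and 18.7 percentage points, and the log2 ratio from day 0 to day 9, which differed by 1.34. Each of these had an adjusted p of 0.119, so none passed after adjustment, and in all 3 the wells of the groups did not overlap. None of the 4 tests on D-cyclin shares reached that p: the difference for CCND1 was -0.70 percentage points from day 0 to day 9 (exact p = 0.893) and -8.00 from day 9 to day 90 (exact p = 0.0714, adjusted 0.143).

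**Figure D5:**
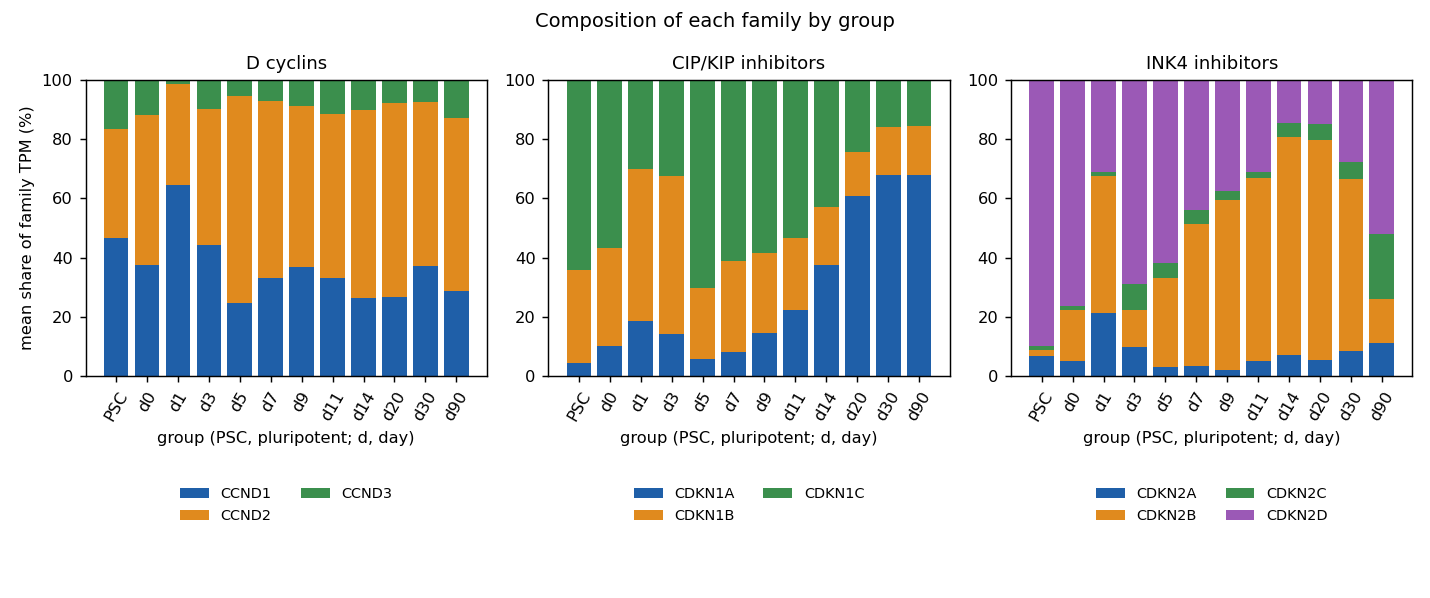
Mean share (%) of each gene in the summed TPM of its family by group, as stacked bars from 0 to 100. CCND1 leads the D cyclins at day 1, CDKN1A replaces CDKN1C as the leading CIP/KIP gene by day 20, and CDKN2B fills most of the INK4 bar from day 9 to day 30.

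Other genes of the pathway were counted from lists chosen by name. All 12 proliferation genes, which include MKI67, CCNB1 and PCNA, fell from day 0 to day 9, where 47.6% of all genes were called, with a median of -1.84 against 0.08 over all genes. MCM5, part of the replicative helicase, fell by 2.30 (SE 0.34). Their summed level was 2355 to 2401 CPM at day 0 and 680 to 792 CPM at day 9. Over the same span 3 of the 23 genes of G1 kinases, RB and E2F factors rose and 10 fell, against the same 47.6%: CDK6, a kinase partner of D cyclins, rose by 2.29 ± 0.18 and E2F7 fell by 2.23 (SE 0.40). From day 9 to day 90 1 of the 12 proliferation genes rose and 2 fell, and 5 of the 23 genes of G1 kinases, RB and E2F factors rose and 6 fell, with a median of -0.05, where 38.4% of all genes were called. MYCN fell by 1.83 and E2F1, an activating E2F, rose by 1.74 ± 0.29. Day 20 replicate 3 had a proliferation sum of 1470 CPM against 276 and 344 CPM in the other wells of that day, and of these 3 wells it had the most CDKN1A (163 CPM), CDKN1B (61.5 CPM) and CDKN1C (52.3 CPM).

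Of 14 p53 target genes other than CDKN1A, 4 rose and 4 fell from day 0 to day 9 (47.6% of all genes called), and 6 rose and none fell from day 9 to day 90 (38.4%), with medians over the list of 0.07 and -0.05 against 0.08 and -0.02 over all genes. BTG2, an antiproliferative gene, rose by 3.33 ± 0.25 in the first span, and ZMAT3 by 1.36 ± 0.15 in the second. From day 30 to day 90 none of the 14 rose and 2 fell, where 8.52% of all genes were called. One was MDM2, which encodes the ubiquitin ligase for p53 and fell by 0.84 (SE 0.23, edgeR adjusted p = 0.0178). Of 8 genes that neighbour the INK4 locus or encode Polycomb proteins, which silence that locus in stem cells, 4 rose and 1 fell from day 0 to day 1, where 22.1% of all genes were called. BMI1 rose by 1.31 ± 0.22 and CBX7 fell by 2.15 (SE 0.33). From day 0 to day 9, 2 of these 8 rose and 3 fell, where 47.6% of all genes were called. EZH2, the Polycomb methyltransferase, fell by 0.98 (SE 0.25).

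The protein-coding genes whose 12 group means followed each gene most closely were named as a description, over means that share their libraries. For CDKN1A these were LRRC10, a heart muscle gene, DAZAP2 and LIMS2, with a Pearson r of 0.995, 0.991 and 0.990. For CDKN2C they were APBA1, ABCC9, which encodes a subunit of a potassium channel of heart muscle, and B3GALT2 (0.985, 0.981 and 0.973), and for CDKN2D SIRT5, TESC and UQCRB (0.982, 0.972 and 0.966). CCND3 was followed by TCEAL3 at 0.987 and CCND1 by PSMD9 at 0.958. CDKN1C was followed by CALCRL, a receptor subunit gene of blood vessel lining, at 0.955, and CDKN2B by ADARB1, PTGS2 and ITGB6 (0.961, 0.960 and 0.956). CDKN2A was followed by SYNJ2BP at 0.978. The early group means of CDKN2A and CDKN2C rest on few counts. CDKN1A shared its rising pattern with many genes: 5.25% of the 12077 candidates had an r over 0.9 with it, against 0.00828% for CCND2.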

How the data were processed

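RNA was isolated with a Norgen single-cell kit, and libraries were made from total RNA with the TruSeq stranded kit and sequenced as paired ends on an Illumina instrument, per the labels' protocols. The submitters' processing notes name cutadapt, STAR 2.5.2b, RSEM 1.2.31 and build hg38; their roles, the annotation and the strand setting are not given in the sources used here. The authors deposited estimated counts per gene (expected counts, 93.8% of them whole numbers), which were rounded to whole numbers here, and TPM per gene for the same 44 libraries. A deposited table gives each library's RNA integrity number, a score of 7.4 to 10, and its lane, 1 of 5. Symbols came from GENCODE 29, which named 56769 of the 60499 IDs.

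Counts were fitted in edgeR 4.0.16 (R 4.3.3) with filterByExpr, TMM factors and 1 mean for each of the 12 groups over all 44 libraries, using glmQLFit and glmQLFTest in 13 comparisons. Calls needed a Benjamini-Hochberg adjusted p under 0.05 over the 22955 genes tested. SE is the absolute log2 fold change divided by the square root of F. The fits were tested on simulated data. The spread measure counts genes at least 2-fold away from the mean of the other wells. Shares of family TPM were compared by exact permutation tests (scipy 1.17.1). Alternatives were DESeq2 1.42.0, limma 3.58.1 on log2 TPM, other scalings, filters and fits, a lane term, the replicate number as a block, and each library left out. Totals of 6937136 to 33498022 counts set the precision.

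The 10 genes and the gene lists were chosen with earlier results of these data known. Every one of the 10 is named. From each list up to 3 called genes with the largest absolute change in a comparison could be named, and for each of the 10 up to 3 protein-coding genes with at least 10 CPM in their highest group and the highest correlation of group means. POU5F1, NANOG, SOX2, TTN, MYH7, LUM, ACTA2 and TAGLN at day 1 were named after their values were seen. No 2 libraries agreed within sampling noise. Promoter windows came from RefSeq tables (GRCh38.p14), which matched 7 of the 10 genes.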

Additional observations from a re-analysis of the deposited data

Results flagged for a closer look

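In each group of 5 wells the highest and lowest well was compared with the others by Dixon's test, for the 10 genes in 40 groups of wells in all. The test flags about 1 in 20 groups by chance. Replicate 10 at day 7 stood apart for CDKN1A, at 24.2 CPM against 12.5 to 15.2 CPM in the other 4 wells. The same well stood apart for CDKN2B, at 6.14 CPM against 2.39 to 3.24 CPM. Of the day 7 wells it also had the most genes at least 2-fold away from the others (4.96%, against 0.642% to 1.12%) and the highest smooth muscle marker sum (1242 CPM against 555 to 777 CPM), and the part of either in these levels was not tested. Replicate 4 at day 5 stood apart for CDKN2A, at 0.13 CPM, which is 3 counts, against 0 to 0.0372 CPM.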

How the results depend on the processing

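Over all alternatives other than leaving out a library, fold changes were tallied only where the main fit or 1 of these alternatives called the gene. They kept direction and side of the threshold in 458 cases, lost the call in 51, gained it in 25 and changed sign in 4. Counts of called genes stayed within 1.5 times in 120 cases and moved by more in 23. The cause of each change was not tested. From pluripotent cells to day 0 the count of 2 became 1 with a minimum log2 change of 1, 1 without a filter, 5 in a fit of the compared groups only, and 0 in both limma fits on TPM. It became 3 from day 1 to day 3 with limma on log2(TPM + 1), and 1 from day 3 to day 5 in both limma fits. From day 5 to day 7 the 4 became 2 with the minimum change, 2 with the replicate block, and 0 in both limma fits. From day 7 to day 9 the 0 became 1 with RLE factors, no filter, a filter of 1 CPM in 3 libraries, the compared groups only, or DESeq2, and from day 9 to day 11 it became 1 with RLE factors, the stricter filter, the replicate block, the compared groups only, or DESeq2. From day 30 to day 90 the 3 became 0 in the compared groups only. Changed signs were CCND2 from day 30 to day 90 (-0.19 and -0.20 on log2(TPM + 1) and log2(TPM + 0.1)) and CDKN1B (-0.24 and -0.25). On that scale the median of all genes shifted by -0.39 and -0.72 in this step, by -0.24 and -0.53 from day 9 to day 90, and by 0.30 and 0.49 from day 11 to day 14. Over all genes, the 1349 called from pluripotent cells to day 0 became 8655 in the compared groups only and 142 with limma on log2(TPM + 1), the 1353 from day 5 to day 7 became 3112 and 455, and the 1955 from day 30 to day 90 became 2 and 2168. Of the genes called from day 9 to day 90, 48.7% were higher at day 90, but 20.3% of those called on log2(TPM + 1), and from day 30 to day 90 these shares were 47.3% and 6.46%.

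With single libraries left out, counts of called genes ranged from 0 to 0 from pluripotent cells to day 0, 5 to 7 to day 1, 4 to 6 to day 3, 2 to 3 to day 5, 2 to 4 to day 7, 0 to 1 to day 9, 0 to 1 to day 11, 0 to 2 to day 14, 0 to 1 to day 20, 0 to 2 to day 30 and 1 to 3 to day 90, and from 4 to 5 and 7 to 8 over the longer spans. The differences in share from day 0 to day 9 ranged from -2.76 to 0.85 percentage points for CCND1 and from -2.35 to 4.21 for CDKN1C, and that of CCND2 from day 9 to day 90 from -0.49 to 6.50. Same-numbered wells did not deviate together throughout, so the numbers were not taken as pairs. Their deviations from the group mean correlated at r from -0.101 (day 9 to day 11, replicate 1) to 0.611 (day 14 to day 20, replicate 2). Replicate 3 gave 0.553 from day 14 to day 20, and replicate 10 gave 0.454 from day 7 to day 9. Over all genes, the 12 called from day 14 to day 20 became 79 with the replicate block. With the replicate block CCND2 from day 30 to day 90 was 0.62 (edgeR adjusted p = 0.0776) and CDKN1A from day 5 to day 7 was 1.00 (adjusted p = 0.057), CDKN2D in that step was 0.81 (adjusted p = 0.052), and CDKN1A from day 9 to day 11 (1.18, adjusted p = 0.0444) and CDKN2C from day 30 to day 90 (3.41, adjusted p = 0.00949) were called. The block changed no other call of the 10 genes. Day 14 replicate 2 and day 20 replicate 2, which had the lowest totals, were left out together as an alternative chosen after seeing the totals, which moved no count by over 1.5 times and among single genes added the call of CDKN2C from day 30 to day 90 (adjusted p = 0.0338). In the INK4 genes, CDKN2A and CDKN2C before day 14 are limited by depth.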
